A study of Mus musculus with 8 samples.

Results

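Accessible chromatin was examined at 10 genes that mark the zones of the liver lobule: Glul, Axin2, Lgr5, Tbx3, Cyp2e1, Cyp1a2, Oat and Slc1a2 on the side of the central vein, and Cdh1 and Gls2 on the side of the portal tract. A consensus region was assigned to one of these genes when it was the nearest protein-coding gene, by distance to the gene span and within 100 kb. This gave 49 of the 49587 consensus regions of the study. The data were ATAC-seq peak lists, in which a transposase cuts open DNA, from whole liver of 9-week-old male C57BL/6 mice kept on chow and then fasted for 24 h. The 8 libraries, 2 per genotype, were from wild type, Cpt2 L-/- (knockout of Cpt2 in liver), Ppara -/- (knockout of Ppara) and Cpt2 L-/- ; Ppara -/- mice, the last termed double knockout, in which the loss of Ppara is whole-body per the labels. Cpt2 is needed to burn long-chain fatty acids in mitochondria, and Ppara is the nuclear receptor that drives the fasting program of fat oxidation. The labels do not name the driver of the Cpt2 deletion, and do not say whether the 2 libraries of a genotype came from different mice. Wild type and Cpt2 knockout are called Ppara-intact here, and Ppara knockout and double knockout Ppara-null.

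Hepatocytes along the axis from portal tract to central vein do different work. Endothelial cells of the central vein secrete Wnt ligands and R-spondin, and the resulting β-catenin signal turns on glutamine synthesis and drug metabolism in pericentral hepatocytes, with Glul limited to the layers next to the vein. Periportal hepatocytes, where this signal is low, carry out urea synthesis, gluconeogenesis and the breakdown of glutamine by Gls2. In bulk tissue, fewer cells with an open region and less opening per cell cannot be told apart.

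Start-site windows, from 250 bases before to 50 after an annotated start, were available from RefSeq (GRCm38.p6, the assembly of mm10) for 6 of the 10 genes. The 4 below are shown because they range from regions called everywhere to none: the windows of Glul and Cyp2e1 lay within regions called in all 8 libraries, that of Axin2 shared 212 bases with a region called in 5, and that of Cyp1a2 met no consensus region. Each is printed 5′ to 3′ along the gene, with capitals for the CCAAT box (letters CCAAT), the TATA box (TATAAA) and the TCF/LEF core bound by the β-catenin partners (ATCAAAG), searched on both strands.
Glul, chr1:153899679-153899978, + strand: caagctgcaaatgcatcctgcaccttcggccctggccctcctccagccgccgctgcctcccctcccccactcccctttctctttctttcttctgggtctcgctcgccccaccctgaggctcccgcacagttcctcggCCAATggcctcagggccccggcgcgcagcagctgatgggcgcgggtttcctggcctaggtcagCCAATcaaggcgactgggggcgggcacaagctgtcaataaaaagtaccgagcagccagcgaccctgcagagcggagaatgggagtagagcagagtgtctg
Cyp2e1, chr7:140763569-140763868, + strand: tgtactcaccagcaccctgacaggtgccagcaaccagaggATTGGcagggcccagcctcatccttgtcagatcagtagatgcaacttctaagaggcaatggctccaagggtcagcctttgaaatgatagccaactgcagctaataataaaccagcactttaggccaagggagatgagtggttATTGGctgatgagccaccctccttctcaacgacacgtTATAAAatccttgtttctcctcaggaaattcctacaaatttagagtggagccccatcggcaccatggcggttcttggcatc
Axin2, chr11:108920099-108920398, + strand: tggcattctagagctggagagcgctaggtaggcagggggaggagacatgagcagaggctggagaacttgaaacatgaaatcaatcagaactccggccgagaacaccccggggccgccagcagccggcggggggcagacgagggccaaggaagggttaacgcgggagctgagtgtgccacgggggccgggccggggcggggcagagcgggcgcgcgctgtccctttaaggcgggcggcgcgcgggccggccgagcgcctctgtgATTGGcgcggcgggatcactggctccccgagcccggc
Cyp1a2, chr9:57683606-57683905, - strand: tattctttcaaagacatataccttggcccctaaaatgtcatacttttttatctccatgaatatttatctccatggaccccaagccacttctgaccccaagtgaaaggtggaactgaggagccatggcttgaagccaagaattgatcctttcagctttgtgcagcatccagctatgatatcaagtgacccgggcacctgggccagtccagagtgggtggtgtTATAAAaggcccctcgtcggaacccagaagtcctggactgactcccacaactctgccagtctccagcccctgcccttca
The windows fell into 2 kinds. Axin2, Oat and Glul had 31, 22 and 17 CpG dinucleotides at a GC content of 70.0%, 61.7% and 64.3%, against a median of 7 and 52.7% over 32817 windows. Cyp2e1, Cyp1a2 and Slc1a2 had 4, 3 and 1, at 49.7%, 49.7% and 45.7%. A CCAAT box was in 4 of the 6 windows (37.4% of all windows), those of Glul, Cyp2e1, Axin2 and Oat, and a TATA box in those of Cyp1a2 and Cyp2e1 (13.6% of all). The TCF/LEF core was in the Slc1a2 window alone (3.73% of all). The direct repeat DR1 bound by Ppara with its partner (AGGTCA, any base, AGGTCA, in 0.0396% of all windows) and the xenobiotic response core (GCGTG, 32.4%) matched none of the 6. These are letter matches in short windows and not sites shown to be bound.

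With Ppara intact, lists held 28733 to 39296 peaks, and without it 18132 to 22715, and read totals are not given in the sources used here. The numbers within the authors' peak names were 441, 443, 446 and 4717 with Ppara intact and 6831 to 6834 with Ppara lost. What they mark is not stated, so they and Ppara status cannot be told apart. Hepatocyte markers were open in the labelled tissue: all 8 marker genes, Alb and Hnf4a among them, had a region called in all 8 libraries. Of their 83 regions, each Ppara-intact library called 54 to 65 and each Ppara-null library 37 to 44. Regions of markers of other liver cells were also called less in Ppara-null libraries: 12 to 28 against 5 to 7 of 40 for 6 endothelial genes, 6 to 11 against 0 to 2 of 13 for 5 cholangiocyte genes, and 3 to 7 against 0 to 2 of 9 for 5 stellate cell genes. Krt19 and Krt7 of cholangiocytes, Dcn and Des of stellate cells, and Adgre1, Cd5l, Timd4 and Vsig4 of Kupffer cells had no region at all. For Kupffer cells 3 regions were called, 0 to 2 per Ppara-intact library and in no Ppara-null library, and for lymphocytes 1, called in all 4 Ppara-intact and 2 Ppara-null libraries. Of 11 regions of 6 genes of nerve, muscle and pancreas, 5 to 7 and 3 were called. The part of these cells in the results on zonation genes was not tested.

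Calls at zonation genes followed the length of the peak lists. Wild type called 28 and 36 of the 49 regions, Cpt2 knockout 39 and 37, Ppara knockout 20 and 15, and double knockout 22 and 16. As shares these were 57.1% and 73.5%, 79.6% and 75.5%, 40.8% and 30.6%, and 44.9% and 32.7%. Over all consensus regions the shares were 56.9% and 71.8%, 77.7% and 71.3%, 39.8% and 35.6%, and 44.5% and 35.5%. The gap was widest in Ppara knockout 2 at 30.6% against 35.6%, as the bars by library show. Of the 49 regions, 13 (26.5%) were called in all 8 libraries, against 22.7% of all regions. A single library called 10 (20.4%, against 23.0%), and 25 (51%) were called in no Ppara-null library, against 42.3%. All 4 Ppara-intact libraries called 23 (46.9%, against 48.5%) and all 4 Ppara-null libraries 13 (26.5%, against 23.4%), the same 13 as in all 8. Each of the 49 had a peak in at least 1 Ppara-intact library, where 5.43% of all regions had none. The regions called everywhere were wider, with a median of 656 bp against 231 bp for those called once. Within 1 kb of a gene end lay 22.4% of the 49, against 26.0% of all regions.

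**Figure D1:**
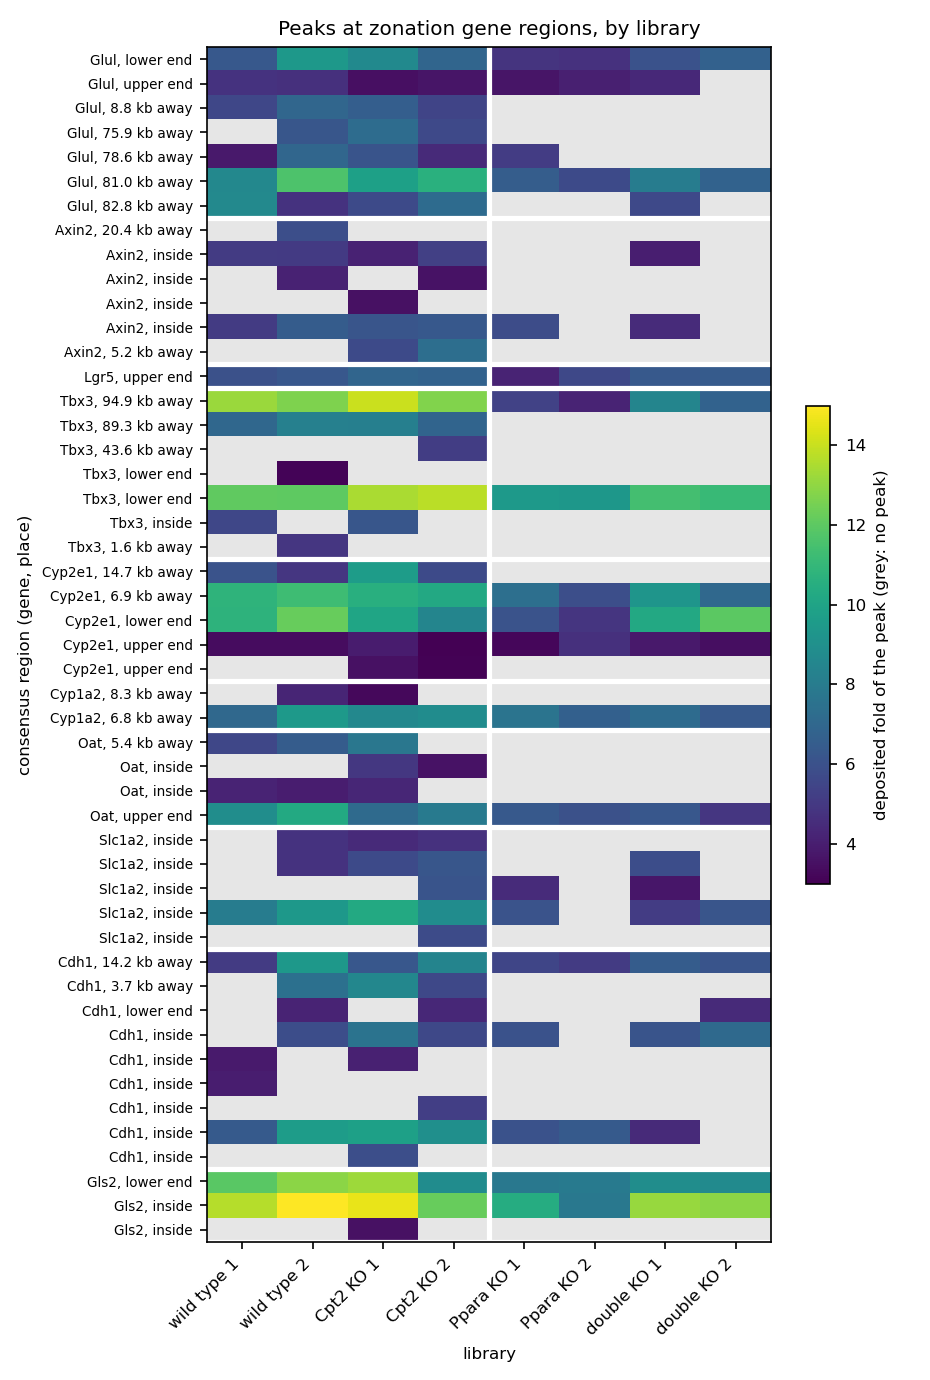
Deposited fold of the strongest peak in each of the 49 zonation gene regions (rows, named by gene and place, where the lower and upper ends are by coordinate) in each of the 8 libraries (columns); grey means no peak. Rows filled across all columns are the 13 regions called in every library, and grey dominates on the right, in the 4 Ppara-null libraries.

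**Figure D2:**
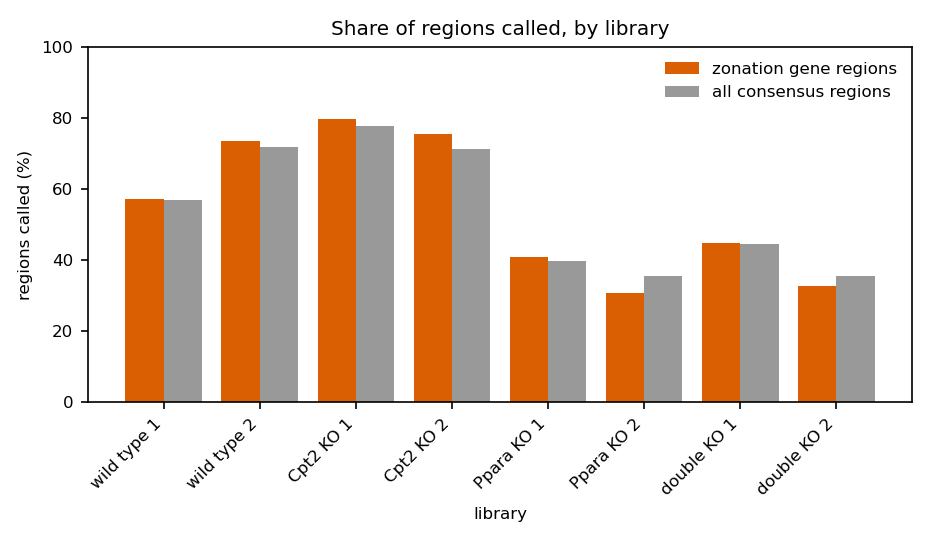
Share of the 49 zonation gene regions and of all 49587 consensus regions called in each library (y axis, percent). The 2 bars of each library are close, from 57.1% and 56.9% in wild type 1 to 32.7% and 35.5% in double knockout 2.

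The Wnt feedback gene Axin2, a scaffold of the complex that destroys β-catenin, had few peaks in Ppara-null libraries, whose lists were shorter. Its 6 regions (gene at chromosome 11, 108917828 to 108950783) were called 2, 4, 4 and 4 times in the Ppara-intact libraries, against 1 and 0 in Ppara knockout and 2 and 0 in double knockout. Of all consensus regions, 56.9% to 77.7% were called per Ppara-intact library and 35.5% to 44.5% per Ppara-null library. The region at 108920187 to 108920961, which covers 212 bases of the window printed above, had folds of 5.08 and 5.04 in wild type, 4.15 and 5.29 in Cpt2 knockout and 4.0 in double knockout 1. The fold is the peak caller's ratio of the peak to its local background, an authors' value, and −log10 p is its p-value for the same peak. The −log10 p was 17.6 to 32.2 in Ppara-intact libraries and 15.2 in double knockout 1. Ppara knockout 1, Ppara knockout 2 and double knockout 2 had no peak there, so the region separated Ppara knockout from wild type but not Ppara status. In 4 of the 5 libraries that called it the region held 2 peaks, one over the start site and one farther into the gene, and wild type 1 had 1 wide peak over both places. The folds given are those of the peak with the higher −log10 p. This was the peak over the start site in wild type 2, but the inner peak in Cpt2 knockout and double knockout 1. The peak over the start site had folds of 3.89 and 3.88 in Cpt2 knockout and 3.88 in double knockout 1. The inner peak of wild type 2 had a fold of 4.92. A region deeper in the gene, at 108935996 to 108936795, had folds of 5.08 and 6.51 in wild type, 6.16 and 6.30 in Cpt2 knockout, 5.77 in Ppara knockout 1 and 4.50 in double knockout 1. These folds are not all of the same peak. Summits lay at 108936149 to 108936188 with Ppara intact, but at 108936628 in Ppara knockout 1 and 108936596 in double knockout 1. The wild type 1 peak did not overlap those of the Ppara-null libraries, and wild type 2 had a second peak at their place, with a fold of 4.73. Past the gene, at 108955976 to 108956303, only Cpt2 knockout had peaks, with folds of 5.69 and 7.35 and −log10 p of 14.9 and 23.9. The other 3 regions were called in 1 or 2 Ppara-intact libraries. Axin2 peaks did not rank high with Ppara intact either. By rank within each library's own list, their −log10 p was at percentile 5.465 to 49.96 in Ppara-intact libraries. It was at 42.0 in Ppara knockout 1 and at 23.3 and 24.99 in double knockout 1. Peaks of low rank are the first to be missing from a shorter list. The part of list length in the Axin2 counts was not tested.

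Lgr5, a receptor for R-spondin that strengthens Wnt signals, had 1 region, at its upper-coordinate end (chromosome 10, 115586500 to 115587945), called in all 8 libraries. Its folds were 5.99 and 6.25 in wild type, 6.90 and 6.79 in Cpt2 knockout, 4.22 and 5.61 in Ppara knockout, and 6.37 and 6.43 in double knockout. The −log10 p was 18.9 to 35.8 with Ppara intact and 11.1 to 21.7 with Ppara lost. Ppara knockout held the 2 lowest folds, and double knockout overlapped the Ppara-intact range. Here too 4 libraries, at least 1 of every genotype but the double knockout, had 2 peaks in the region, of which the one with the higher −log10 p is given. The folds are not all of the same place. In each genotype 1 library had its summit at 115586983 to 115587032 and the other at 115587461 to 115587510.

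Tbx3, a T-box transcription factor of pericentral hepatocytes, had 1 peak that barely moved in position at its gene end and 1 distal peak whose fold ranged widely. At the gene's lower-coordinate end (chromosome 5, 119670324 to 119671142), folds were 12.1 and 12.0 in wild type, 13.5 and 13.7 in Cpt2 knockout, 9.43 and 9.37 in Ppara knockout, and 11.4 and 11.1 in double knockout. The −log10 p was 130 to 216 with Ppara intact and 57.1 to 92.9 with Ppara lost. The 8 summits lay within 5 bases of each other, where 1.31% of regions called in all 8 libraries had summits within 10 bases. In deposited fold these genotypes did not overlap, with Cpt2 knockout highest and Ppara knockout lowest. The order changed with folds divided by the library's median over regions called in all 8 libraries. They were then 1.31 and 1.06 in wild type, 1.19 and 1.39 in Cpt2 knockout, 1.36 and 1.47 in Ppara knockout, and 1.54 and 1.66 in double knockout. Double knockout was then highest, and Ppara knockout was above wild type. Far from the gene, at 94866 bp (119574978 to 119575667, overlapping the lncRNA AW549542), folds were 13.2 and 12.7 in wild type, 14.1 and 12.7 in Cpt2 knockout, 5.38 and 4.22 in Ppara knockout, and 8.46 and 6.77 in double knockout. Its mean fold in Ppara-null libraries was 0.472 of that in Ppara-intact ones, against a median of 0.680 over the 11258 regions called in all 8 libraries. A ratio of 0.5 or less was seen at 3.27% of those regions and at no other zonation gene region. By rank within each library's own list, the −log10 p of this peak was at percentile 87.1 to 93.0 in Ppara-intact libraries, 29.8 and 5.46 in Ppara knockout, and 80.9 and 59.5 in double knockout. In lists trimmed to the same number of peaks it was at percentile 74.3 to 87.4 with Ppara intact and 4.67 to 76.1 with Ppara lost, and the groups overlapped. Its neighbour at 89336 bp (119580448 to 119581197) was called only with Ppara intact, with folds of 6.99 and 8.21 in wild type and 8.17 and 6.86 in Cpt2 knockout and −log10 p of 24.9 to 46.7. The other 4 Tbx3 regions were called in 1 or 2 Ppara-intact libraries. The region 94866 bp away is also the one just inside the 100 kb limit. Just outside it, 108641 bp from Oat (chromosome 7, 132448429 to 132448833), 3 Ppara-intact libraries had folds of 5.14, 5.27 and 5.54.

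Glul, glutamine synthetase, which captures ammonia at the end of the sinusoid, had 7 regions (gene at chromosome 1, 153899929 to 153909723). At its start (153899630 to 153900383), folds were 6.31 and 9.41 in wild type, 8.71 and 6.91 in Cpt2 knockout, 4.81 and 4.73 in Ppara knockout, and 6.01 and 6.72 in double knockout. The corresponding −log10 p values were 40.2 and 102, 87.1 and 62.6, 21.9 and 22.5, and 28.6 and 32.7. Ppara knockout was lowest, and double knockout overlapped wild type in fold. Summits lay at -83 to 164 bases from the start site. A second group of 4 regions lay 75897 to 82775 bp past the gene, within the lncRNA Gm30327 or at most 5276 bp from it. Of these, the one at 153990706 to 153991116 was called in all 8 libraries, with folds of 8.61 and 11.7 in wild type, 9.84 and 10.6 in Cpt2 knockout, 6.52 and 5.70 in Ppara knockout, and 8.05 and 6.79 in double knockout. Here every Ppara-intact value was above every Ppara-null value, which held for 5 of the 13 zonation gene regions called in all 8 libraries (38.5%) and for 60.0% of all such regions, and the reverse for none and 0.222%.

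The other Glul regions were weaker and less often called. At 8846 bp past the gene (153918570 to 153919239), only the Ppara-intact libraries had peaks, with folds of 5.53 and 6.98 in wild type and 6.57 and 5.47 in Cpt2 knockout and −log10 p of 14.5 to 24.8. This is one of the regions separated by Ppara status. Its calls do not all share one place: the peaks of wild type 1 and Cpt2 knockout 1 did not overlap, with summits at 153918682 and 153919007. At 75897 bp (153985621 to 153985940), peaks were in wild type 2 and both Cpt2 knockouts, with folds of 6.22, 7.24 and 5.65 and −log10 p of 17.1 to 31.3. At 78616 bp (153988340 to 153988667), folds were 3.83 and 6.97 in wild type, 6.10 and 4.43 in Cpt2 knockout and 5.12 in Ppara knockout 1, with no peak in double knockout and −log10 p of 12.4 to 42.7. So these distal regions differed in which Ppara-null library kept a call. At 82775 bp (153992499 to 153992852), they were 8.64 and 4.77, 5.71 and 7.2, and 5.63 in double knockout 1, with no peak in Ppara knockout and −log10 p of 19.3 to 49.6. The region 238 bp past the gene was called in all libraries but double knockout 2, with folds of 3.51 to 4.78. These calls too do not all share one place. Summits lay at 153910058 and 153910059 in Cpt2 knockout and at 153910550 to 153910702 in the others. The Cpt2 knockout peaks did not overlap those of wild type 1 and Ppara knockout 1.

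**Figure D3:**
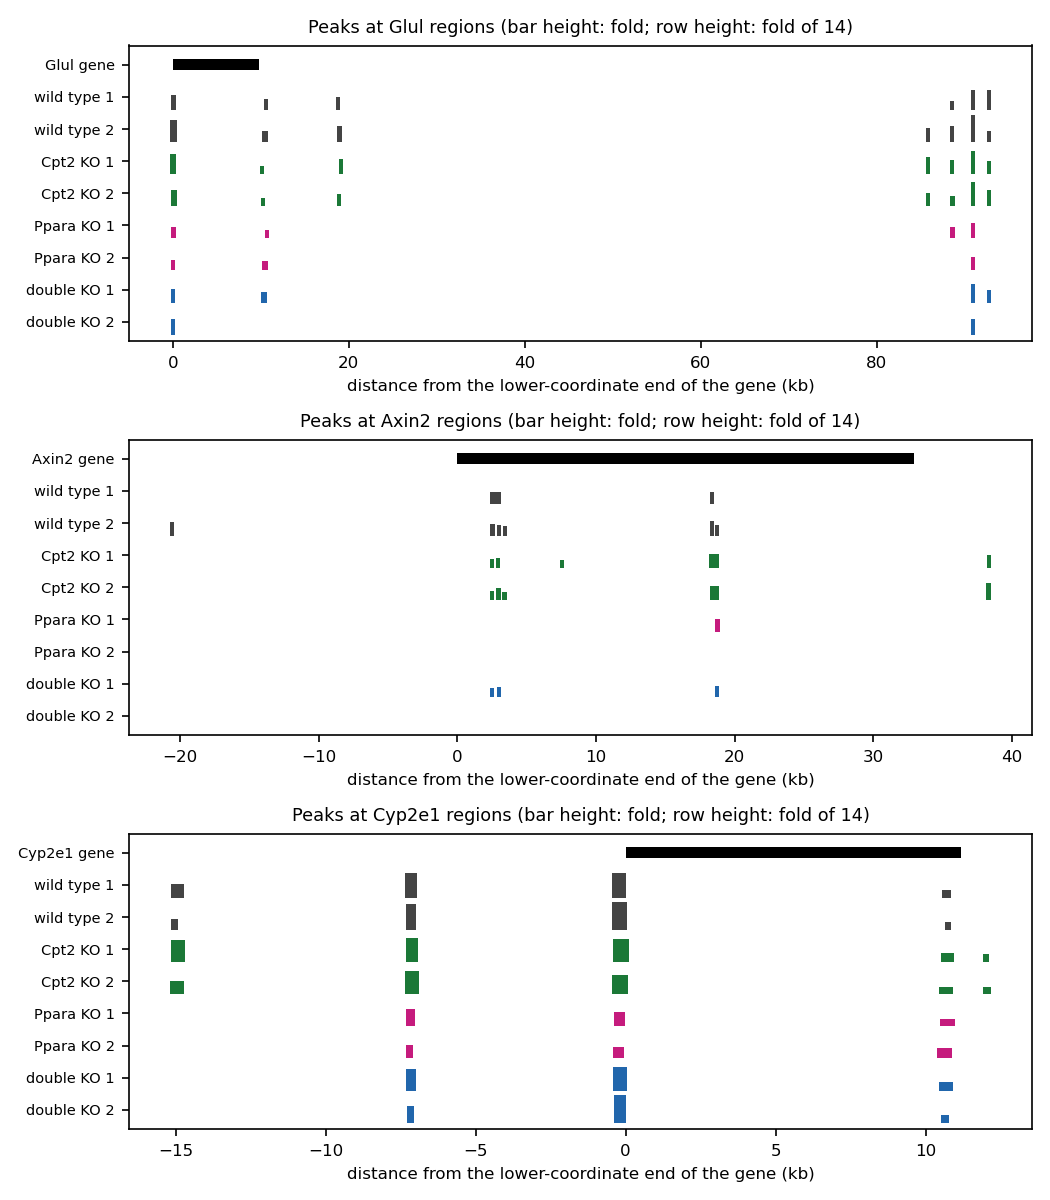
Peaks in the regions of Glul, Axin2 and Cyp2e1 in the 8 libraries (rows); the x axis is the distance in kb from the gene's lower-coordinate end, and bar height is the deposited fold, with narrow peaks widened to stay visible. Axin2 has no peak in Ppara knockout 2 and double knockout 2, while the start of Cyp2e1 and the Glul region 80982 bp past the gene have one in every library.

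Cyp2e1, a pericentral cytochrome P450 that oxidizes ethanol and acetone, had 5 regions (gene at chromosome 7, 140763819 to 140774990), 3 of them called in all 8 libraries. At the start (140763370 to 140763916), folds were 10.8 and 12.2 in wild type, 10.1 and 8.46 in Cpt2 knockout, 6.08 and 4.85 in Ppara knockout, and 10.2 and 12.0 in double knockout. The −log10 p was 88.8 and 118, 97.3 and 81.6, 30.5 and 18.6, and 91.5 and 80.6. Ppara knockout stood apart below the other 6 libraries, and double knockout lay within the range of wild type and Cpt2 knockout. Within each library's own list the peak ranked at percentile 90.4 in both wild types, 86.2 in both Cpt2 knockouts, 72.0 and 46.4 in Ppara knockout, and 97.0 and 97.2 in double knockout. All 8 summits lay at -237 to -149 bases from the start site, inside the window printed above. The region 6902 bp before the gene (140756466 to 140756916) had folds of 10.8 and 11.3, 10.6 and 10.2, 7.38 and 5.89, and 9.27 and 7.06 in the same order, so every Ppara-intact value was above every Ppara-null value.

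Within 1 kb of the end of Cyp2e1, at 140774203 to 140774804, folds were low: 3.41 and 3.39 in wild type, 3.90 and 3.00 in Cpt2 knockout, 3.22 and 4.65 in Ppara knockout, and 3.83 and 3.43 in double knockout. The groups overlapped, and the mean in Ppara-null libraries was 1.10 times that in Ppara-intact ones. A ratio above 1 was seen at 1 of the 13 regions (7.69%) and at 2.42% of all regions called in all 8 libraries. The region 14692 bp before the gene (140748641 to 140749126) was called only with Ppara intact, with folds of 6.08 and 4.90 in wild type and 9.61 and 5.69 in Cpt2 knockout and −log10 p of 11.6 to 34.5. That 729 bp past the gene (140775720 to 140775990) was called only in Cpt2 knockout, at folds of 3.55 and 3.09 and −log10 p of 17.1 and 15.4.

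Cyp1a2, which metabolizes caffeine and is induced through the aryl hydrocarbon receptor, had no region at its start. Its strongest region lay 6844 bp below its lower-coordinate end (chromosome 9, 57669593 to 57670092) and was called in all 8 libraries. Folds there were 7.05 and 9.5 in wild type, 8.61 and 8.83 in Cpt2 knockout, 7.6 and 6.69 in Ppara knockout, and 7.19 and 6.35 in double knockout, so the genotypes overlapped. When each list was trimmed to its strongest 18132 peaks, the length of the shortest list, this peak ranked at percentile 50.5 to 60.4 with Ppara intact and 60.7 to 81.2 with Ppara lost. Ranks did not overlap in this direction at 1 of 10 zonation gene regions called in all 8 trimmed lists (10%, against 5.07% of all such regions) and in the other direction at none (5.96% of all). A second region, 8339 bp away, was called in wild type 2 and Cpt2 knockout 1.

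Oat, ornithine aminotransferase, had 4 regions (gene at chromosome 7, 132557475 to 132576398). That at its start (132575653 to 132576638) was called in all 8 libraries, with folds of 8.87 and 10.3 in wild type, 7.14 and 7.89 in Cpt2 knockout, 6.34 and 5.95 in Ppara knockout, and 6.25 and 4.90 in double knockout. The −log10 p was 49.8 to 84.4 with Ppara intact and 18.8 to 33.4 with Ppara lost. Every Ppara-intact fold was above every Ppara-null fold, and the 2 Cpt2 knockouts were below the 2 wild types. The other Oat regions had peaks in Ppara-intact libraries alone. At 5387 bp below the gene (132551811 to 132552087), folds were 5.56 and 6.52 in wild type and 7.74 in Cpt2 knockout 1, and inside the gene at 132571584 to 132571828 they were 4.20, 3.98 and 4.30 in the same libraries, with −log10 p of 23.9 to 40.2 and 15.4 to 20.1. Also inside the gene, at 132570168 to 132570460, only Cpt2 knockout had peaks, at folds of 4.95 and 3.61 and −log10 p of 16.9 and 10.5.

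Slc1a2, a glutamate transporter of pericentral hepatocytes, had 5 regions, all inside its gene span (chromosome 2, 102658239 to 102790784), and none was called in all 8 libraries. The strongest, at 102745162 to 102746017, had folds of 8.04 and 9.39 in wild type, 10.3 and 8.83 in Cpt2 knockout, 6.07 in Ppara knockout 1, and 5.14 and 6.15 in double knockout. The library Ppara knockout 2 had no peak there. The peaks were 770 to 846 bp wide with Ppara intact and 213 to 285 bp with Ppara lost. The narrow peaks were not all at one place, with summits at 102745357 in Ppara knockout 1 and at 102745780 and 102745329 in double knockout. Just before the annotated start site of its window (102706062 to 102706433), wild type 2 and both Cpt2 knockouts had weak peaks, with folds of 4.74, 4.44 and 4.71, −log10 p of 10.2 to 13.9 and summits at -244 to -153 bases from the start. The other 3 regions were called in 1 to 4 libraries.

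The 2 periportal genes differed from each other. Gls2, the liver glutaminase, had the highest single fold and −log10 p of the 10 genes. At its lower-coordinate end (chromosome 10, 128194036 to 128195243), folds were 11.9 and 12.9 in wild type, 13.2 and 8.86 in Cpt2 knockout, 7.80 and 7.96 in Ppara knockout, and 8.89 and 8.72 in double knockout, and −log10 p was 92.1 to 168 with Ppara intact and 54.9 to 77.1 with Ppara lost. Inside the gene (128201724 to 128202379), they were 13.6 and 15.3, 14.6 and 12.2, 10.4 and 7.79, and 13.2 and 12.9. The inner peak ranked at percentile 96.2 to 99.8 of every list. In both regions Ppara knockout was lowest, and double knockout overlapped the Ppara-intact range. The remaining region, inside the gene, was called in Cpt2 knockout 1 alone.

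Cdh1, the adhesion protein E-cadherin, had the most regions, 9, of which 1 was called in all 8 libraries. E-cadherin is also made by cholangiocytes, whose marker regions were called 6 to 11 times per library with Ppara and 0 to 2 times without it, and whose part here was not tested. Counted over regions and libraries, those calls were 69.2% and 5.77%, against 69.4% and 38.9% for all regions. The region at its lower-coordinate end (chromosome 8, 106603244 to 106603555) was called in wild type 2, Cpt2 knockout 2 and double knockout 2, with folds of 4.19, 4.31 and 4.42 and −log10 p of 12.3 to 13.4. The region called in all 8 libraries lay 14215 bp below the gene (106588793 to 106589134), within the lncRNA 1110028F18Rik. Its folds were 5.10 and 9.42 in wild type, 6.28 and 8.44 in Cpt2 knockout, 5.49 and 5.10 in Ppara knockout, and 6.47 and 6.11 in double knockout, and the groups overlapped. At 3733 bp below the gene (106599226 to 106599616), peaks were in wild type 2 and both Cpt2 knockouts, at folds of 7.42, 8.55 and 5.61 and −log10 p of 17 to 36.6. Inside the gene, a region at 106633314 to 106633776 had peaks in all libraries but double knockout 2, with folds of 6.41 to 9.81 where Ppara was intact and 4.43 to 6.42 where it was lost. One at 106605667 to 106606024 had peaks in all but wild type 1 and Ppara knockout 2, with folds of 5.61 to 7.57. The other 4 were called in 1 or 2 Ppara-intact libraries.

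For Ppara status, a region counted when the 4 libraries of either status had a peak and the opposite 4 had not. Of the 49, 3 regions (6.12%) were called only with Ppara intact, against 6.82% of all consensus regions, which is close to the background. They were the regions 8846 bp from Glul, 89336 bp from Tbx3 and 14692 bp from Cyp2e1. The opposite pattern was seen at no zonation gene region and at 0.0686% of all regions. In lists trimmed to 18132 peaks the direction turned. The region at the end of Cyp2e1 and that 14215 bp from Cdh1 then had peaks in the 4 Ppara-null lists alone, 2 of the 25 regions still called (8%, against 0.846% of all), and none the reverse (1.34% of all). Both had been called in all 8 full lists, so what turned was their rank against other peaks. The count of 3 became 6 without wild type 1 (12.2%, against 11.9% of all regions), 5 without Cpt2 knockout 2 (10.2%, against 8.34%) and 5 without double knockout 1 (10.2%, against 9.17%), since fewer libraries then had to be separated. By Cpt2 status no zonation gene region was separated, where 0.0968% of all regions were called only in the Cpt2-deficient and 0.00605% only in the other 4 libraries. It separated none in the trimmed lists either, against 0.0666% and 0.0899%. The fold was also higher in every Ppara-intact library at 5 of the 13 regions called everywhere, as given for Glul, but at none once folds were divided by the library's median over such regions (4.21% of all). The regions at the end of Cyp2e1 and near Cyp1a2 were then higher in every Ppara-null library (2 of 13, against 9.79% of all).

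Pairs of genotypes were compared in the same way, with 2 libraries against 2, and no test was made. Ppara knockout against wild type gave 7 regions called only in wild type (14.3%, against 13.6% of all regions) and none only in the knockout (0.460%). The 7 lay at Glul (2), Oat (2), Axin2, Tbx3 and Cyp2e1. Double knockout against wild type gave 6 and 0 (12.2%, against 12.9% and 1.20% of all), at Glul (2), Oat (2), Tbx3 and Cyp2e1. Against Cpt2 knockout, double knockout lacked 10 regions and gained none (20.4%, against 20.4% and 0.597% of all), at Glul (3), Cyp2e1 (2), Axin2, Tbx3, Oat, Slc1a2 and Cdh1. Cpt2 knockout against wild type gave 3 regions called only in the knockout (6.12%, against 3.63%), those past Axin2, past Cyp2e1 and inside Oat, and none the reverse (0.512%). Double knockout against Ppara knockout separated none, against 2.33% of all regions gained and 1.45% lost. Trimmed lists left 0 regions for Cpt2 knockout against wild type (1.73% of all in either direction). For double knockout against Ppara knockout they left 1, lost (2.04%, against 3.86% of all in either direction). For the 3 comparisons across Ppara status they turned the direction, to 2 gained and 1 lost, 4 and 1, and 3 and 1. In either direction these were 6.12%, 10.2% and 8.16% of the 49 regions, against 5.82%, 6.43% and 5.61% of all. Without wild type 1, Ppara knockout and double knockout against wild type gave 17 and 14 regions (34.7% and 28.6%, against 30.5% and 31.1% of all). The latter gave 10 without wild type 2 (20.4%, against 19.0%) and 11 without double knockout 1 (22.4%, against 24.2%). Double knockout against Cpt2 knockout gave 18 without Cpt2 knockout 2 (36.7%, against 35.5%) and 16 without double knockout 1 (32.7%, against 31.8%). Cpt2 knockout against wild type gave 3 gained and 3 lost without wild type 1 (10.4% of all in either direction), 8 and 1 without wild type 2 (14.6%), 7 and 2 without Cpt2 knockout 1 (12.6%), and 6 and 0 without Cpt2 knockout 2 (12.9%). Double knockout against Ppara knockout gave 1 to 3 regions in either direction, against 9.23% to 11.1% of all.

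Among regions called everywhere, double knockout and Ppara knockout differed in fold at many zonation genes. At 9 of the 13 regions both double knockouts were above both Ppara knockouts (69.2%), against 28.6% of all regions called in all 8 libraries, and at none below (12.4%). The 9 regions were at 6 genes, so they are not independent: both regions of Glul, Gls2 and Tbx3, that of Lgr5, the start of Cyp2e1 and the region near Cdh1. At Lgr5 the folds compared were not all of peaks with summits at the same place. At 8 of the 13 (61.5%, against 25.0%) Ppara knockout was below all other 6 libraries, the 8 being the same apart from that near Cdh1. With folds divided by the library's median this held at 1 region, that 94866 bp from Tbx3 (7.69%, against 5.70% of all). Among the 9, the difference of means was widest at the start of Cyp2e1, where double knockout averaged 11.1 and Ppara knockout 5.47. Next were the region inside Gls2, with 13.0 and 9.12, and that 94866 bp from Tbx3, with 7.61 and 4.80. The median fold over all regions called in all 8 libraries was 6.96 and 6.37 in Ppara knockout and 7.44 and 6.67 in double knockout. With folds divided by these medians the counts were 7 above and 2 below, those of Oat and Cyp1a2, against 21.9% and 21.3% of all. By rank in the trimmed lists they were 5 above and 2 below of 10, against 20.6% and 26.6%. These comparisons of fold were chosen after the values were seen.

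Of the 13 regions, both Cpt2 knockouts exceeded both wild types at 2 (15.4%, against 12.9% of all), those of Lgr5 and of the Tbx3 gene end. They were below both wild types at 3 (23.1%, against 7.22%): the start of Oat and, at Cyp2e1, the start and the region 6902 bp away. Both wild types exceeded both Ppara knockouts at 10 (76.9%, against 82.0%) and both double knockouts at 7 (53.8%, against 75.4%). With folds divided by the library's median these counts changed. Cpt2 knockout was then above wild type at none (14.4% of all) and below it at 3, inside Gls2 and at the starts of Oat and Cyp2e1 (23.1%, against 16.9%). Wild type was above Ppara knockout at 2, the start of Cyp2e1 and the region 94866 bp from Tbx3 (15.4%, against 19.4%), and above double knockout at the start of Oat alone (7.69%, against 21.0%). The folds by genotype are plotted for all 13.

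**Figure D4:**
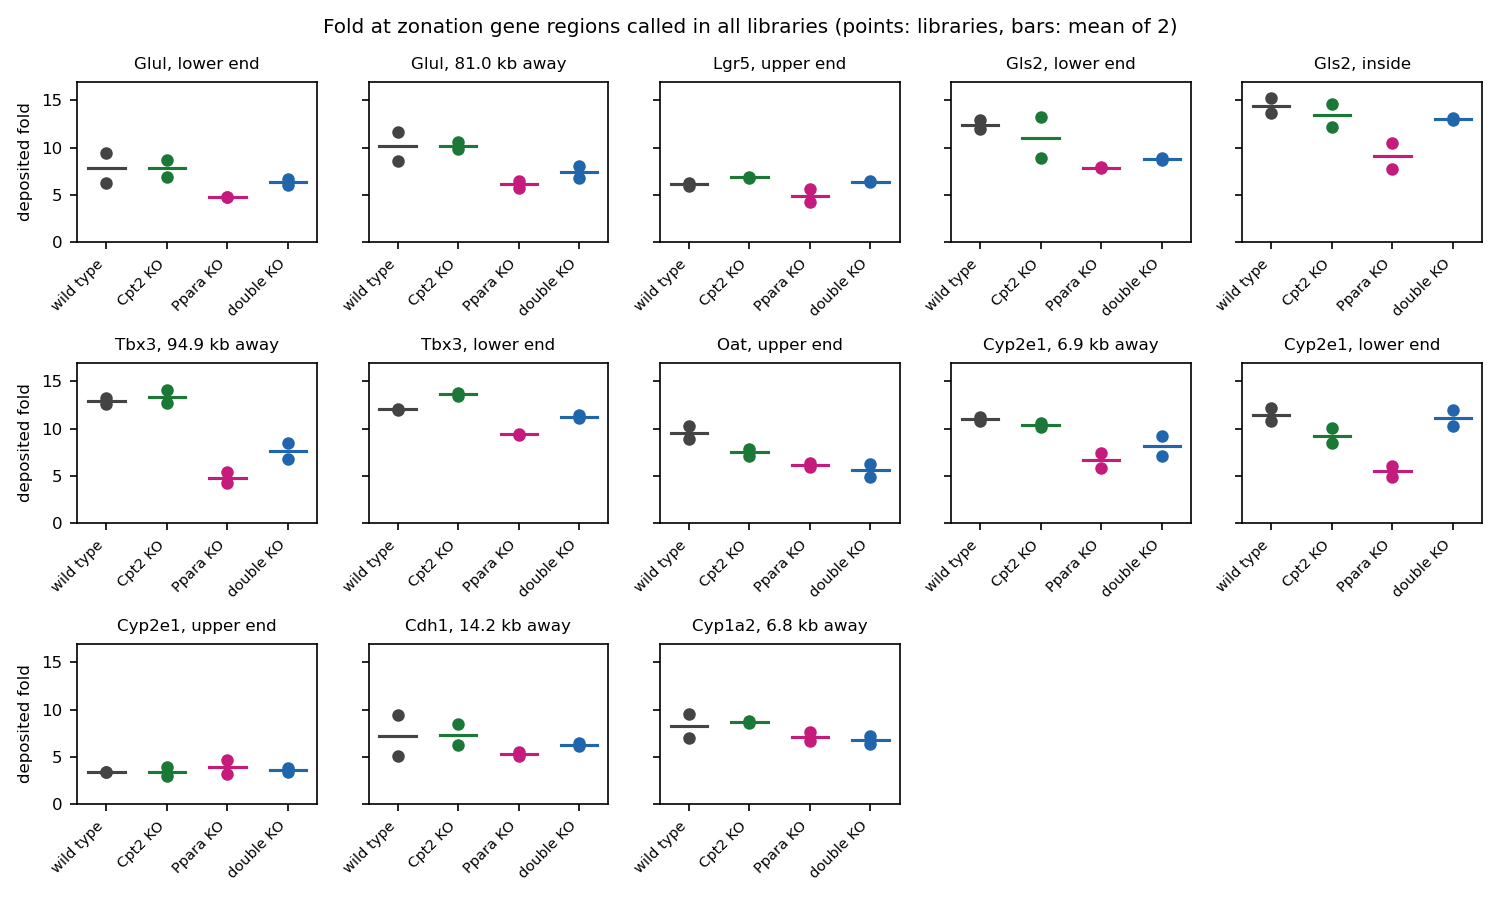
Deposited fold (y axis) at the 13 zonation gene regions called in all 8 libraries, by genotype; points are libraries and bars the mean of 2. Ppara knockout is lowest at the lower ends of Glul, Gls2, Tbx3 and Cyp2e1, and at the last double knockout (10.2 and 12.0) overlaps wild type (10.8 and 12.2).

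The wider set of zonation genes was described from 4 lists. For 28 genes of Wnt signalling, from ligands to nuclear partners, 189 regions were assigned, of which 19 (10.1%) were called only with Ppara intact, against 6.82% of all regions, and 34 (18.0%) in all 8 libraries, against 22.7%. For 24 other pericentral genes, 10 of 118 regions (8.47%) were called only with Ppara intact, for 24 other periportal genes 7 of 154 (4.55%), and for 5 midlobular genes 3 of 21 (14.3%). The reverse was seen at 1 periportal and 1 midlobular region, and at 0.0686% of all regions. In trimmed lists, 2 Wnt regions, 1 pericentral region and none of the periportal or midlobular ones were called only with Ppara intact. This held for 1.34% of all regions still called in those lists. How many regions of each gene list were still called is not given here, so the counts cannot be compared with that share. Counted over regions and libraries, 71.4% were called in Ppara-intact and 34.3% in Ppara-null libraries for the Wnt list, 72.5% and 37.7% for pericentral, 65.3% and 42.7% for periportal, 71.4% and 37.2% for the 10 zonation genes, and 69.4% and 38.9% for all regions. No test of these lists was made.

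Within the Wnt list, the highest ranked region called only with Ppara intact lay 8418 bp from Gsk3b, the kinase that marks β-catenin for destruction (chromosome 16, 38080187 to 38080582), with folds of 9.42 to 14.3, and it was also separated in the trimmed lists. Next came regions inside Lgr4, the relative of Lgr5 (chromosome 2, 109983441 to 109983810, folds of 5.79 to 9.06), and 2 regions inside Znrf3, the ligase that removes Wnt receptors (chromosome 11, 5421922 to 5422282 and 5297057 to 5297447, folds of 6.46 to 8.24 and 7.32 to 11.3). A region 13058 bp from the receptor gene Fzd4 had folds of 6.42 to 9.04, and one inside the transcription factor gene Tcf7l2 had 5.61 to 6.79. Among pericentral genes, the region 680 bp from Nr1i3, the receptor CAR (chromosome 1, 171212853 to 171213253), had folds of 5.10 to 8.40 and was also separated in the trimmed lists. Regions of the pericentral genes Avpr1a, Aldh1a1 (2), Aldh3a2 and Cyp3a11 followed, and among periportal genes those of Gldc, Asl, Ctsc and Cps1. A second Cps1 region, inside this first enzyme of the urea cycle (chromosome 1, 67163432 to 67163734), had peaks in the 4 Ppara-null libraries alone, with folds of 3.59 to 4.69. The same held 703 bp from Hamp, which encodes the iron hormone hepcidin (chromosome 7, 30941187 to 30941664), with folds of 3.18 to 4.36. Midlobular regions called only with Ppara intact lay inside Igfbp2 and at 7177 and 929 bp from Cyp8b1.

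**Figure D5:**
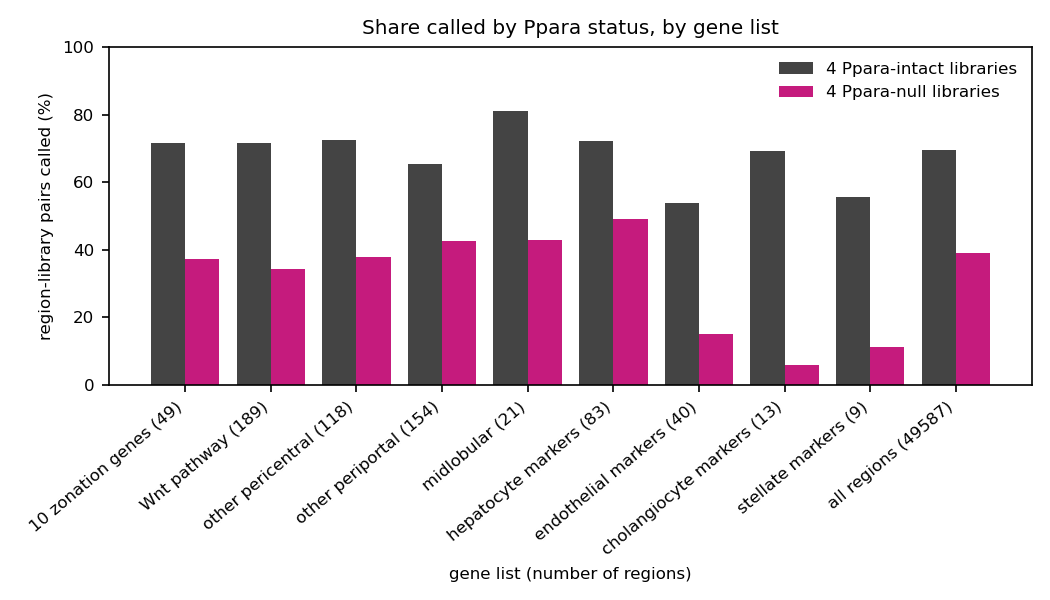
Share of region and library pairs called (y axis, percent) in the 4 Ppara-intact and the 4 Ppara-null libraries, for each gene list (number of regions in brackets). The 10 zonation genes, at 71.4% and 37.2%, lie close to all regions, at 69.4% and 38.9%, while cholangiocyte markers fall to 5.77% in Ppara-null libraries.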

How the data were processed

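ATAC-seq peaks were called per library by the authors with MACS2 2.1.0 on mm10, and BWA is named as well, per the submitters' processing notes; handling of duplicates and of the transposase offset is not given in the sources used here. The deposited lists give for each peak a score, a fold ratio over the local background, and a −log10 p and −log10 q value. The lowest −log10 p was 7.11 to 7.82 per library. A deposited table gives positions of 49587 consensus regions.

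A library called a region where any of its peaks shared 1 bp or more with it, and the region took the values of its peak with the highest −log10 p. Genes were the 21900 protein-coding genes of RefSeq GRCm38.p6; exons were not used here. The authors' fold and −log10 p describe peaks within a list; folds set side by side across libraries also carry library-wide differences. The files used here hold calls and not counts per region, so no test was made, and counts are read against all regions. The code was tested on simulated data. Python 3.11.15, NumPy 2.4.6, pandas 2.3.3 and matplotlib 3.10.9 were used. Regions given in full were, for each gene, the most often called within 1 kb of a gene end and those separated in a comparison; from other lists, up to 6 separated regions by mean rank were named, except one that is not reported here. Genes and lists were chosen with earlier results of these data known.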

Additional observations from a re-analysis of the deposited data

How the results depend on the processing

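Alternatives were lists trimmed to the strongest 18132 peaks, a −log10 q of at least 20, peaks covering at least 50% of a region, a limit of 50 kb, and leaving out each library. With trimmed lists, the regions separated by Ppara status were 2 (4.08%, against 1.32% of all in either direction), all called only without Ppara. Ppara knockout against wild type then gave 3 (6.12%, against 5.82%), double knockout against wild type 5 (10.2%, against 6.43%) and against Cpt2 knockout 4 (8.16%, against 5.61%). Each of these was mostly in the reverse direction. Cpt2 knockout against wild type gave 0 (1.73% of all) and double knockout against Ppara knockout 1 (2.04%, against 3.86%). These lists hold fewer peaks by construction, and the cause of the turned direction was not tested. With a −log10 q cutoff of 20, the regions called in all 8 libraries fell to 4 (8.16%, against 8.55% of all regions), Cpt2 knockout against wild type gave 0 (2.37% of all), double knockout against Cpt2 knockout 6 (12.2%, against 20.8%), and against Ppara knockout 2 (4.08%, against 2.54%). At 50% cover, Ppara status separated 1 region (2.04%, against 8.77%) and double knockout against Ppara knockout 2 (4.08%, against 4.27%).

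With one library left out, regions called in all others were 13 to 15 (26.5% to 30.6%, against 22.7% to 25.9% of all). Separated regions were 3 to 6 by Ppara status (6.12% to 12.2%, against 7.31% to 11.9%) and 0 by Cpt2 status (0.143% to 0.305% of all). Against wild type, Cpt2 knockout gave 6 to 9 (12.2% to 18.4%, against 10.4% to 14.6%). Ppara knockout gave 8 to 17 (16.3% to 34.7%, against 19% to 30.5%) and double knockout 7 to 14 (14.3% to 28.6%, against 19% to 31.1%). Double knockout gave 10 to 18 against Cpt2 knockout (20.4% to 36.7%, against 25.7% to 35.5%). Against Ppara knockout it gave 1 to 3 (2.04% to 6.12%, against 9.23% to 11.1%). Regions with higher fold in both double knockouts than in both Ppara knockouts were 9 to 10 of 13 with one library left out. This was 69.2% to 76.9%, against 36.5% to 52.8% of all regions called in all 8 libraries. The reverse held for 0 to 2 of the 13, against 19% to 32.6% of all. By rank in trimmed lists, 5 of 10 were higher (50%, against 20.6%) and 2 lower (26.6% of all). Regions with higher fold in every Ppara-intact library were 5 to 7 with one library left out (38.5% to 53.8%, against 60.6% to 73.6% of all). They were 0 by rank in trimmed lists (5.96% of all) and 0 with fold over the library median (4.21%). There 1 and 2 lay in the reverse direction (5.07% and 9.79% of all). The alternatives for fold were chosen after seeing the data. The limit of 50 kb left 3 of 11 regions with higher fold in every Ppara-intact library, since 2 of those 5 regions lie farther away, and changed the other counts by at most 1.5 times. No paired analysis was possible because the results come from no test. Without read totals, a region without a peak is one not called at this depth, not one shown to be closed.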
